A study of Mus musculus with 32 samples.

Results

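The 47 genes described here encode enzymes and regulators of amino acid catabolism, chosen by name from a list of pathway members and matched by symbol among the 47643 gene IDs of the count table. All 47 were found. They were grouped by the amino acid that is degraded, with 5 genes for phenylalanine and tyrosine, 6 for tryptophan, 3 for serine and threonine, 5 for glycine, 4 for alanine and aspartate, 2 for glutamine and glutamate, 4 for proline and ornithine, 4 for histidine, 1 for lysine and 13 for the branched-chain amino acids. The libraries came from liver and epididymal white adipose tissue (eWAT) of male mice that were 10 weeks old, C57BL/6 in the labels and C57BL/6J in the methods, with no engineered allele named in the labels. Mice received vehicle (veh) or corticosterone (cort) in drinking water for 7 days while eating a normal-protein diet (NPD, 20% kcal protein) or a high-protein diet (HPD, 60% kcal protein), in which whey protein replaced starch, so protein rose as carbohydrate fell and their effects cannot be told apart. Each tissue had 4 libraries in each of its 4 groups, 32 in all. The comparisons ask how cort changed these transcripts on each diet, how diet changed them with and without cort, and whether liver and eWAT responded alike.

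Amino acids in excess of the need for protein synthesis cannot be stored, and their nitrogen is removed by aminotransferases and by glutamate dehydrogenase before the carbon skeletons are oxidized or used for glucose and ketone bodies. Liver carries out most of this work for the aromatic amino acids, tryptophan, histidine, serine, glycine and proline. The branched-chain amino acids are different, because liver has little of the aminotransferase that starts their breakdown, and muscle and fat begin it instead. Glucocorticoids and dietary protein are both long-known regulators of hepatic amino acid catabolism, and tyrosine aminotransferase is a classic glucocorticoid-responsive enzyme.

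Counts came from 3′-end libraries, in which a transcript gives reads near its poly(A) tail, so levels are given as CPM, counts scaled to library size, after trimmed-mean (TMM) adjustment within a tissue, and are not compared between genes. Totals ranged from 8933307 to 17447524 counts in liver and from 9794683 to 18057936 in eWAT. Liver Veh HPD replicate 4 was left out of the liver fits, a choice made with earlier results of these data known. The members called in liver with it included are named below. It lay below all 15 other liver libraries for 20 of 46 members and above all of them for 2. Its hepatocyte markers summed to 51400 CPM and its pericentral markers to 367 CPM, against 87800 to 277000 and 1270 to 2820 in the other liver libraries. The hepatocyte list held 8 genes with none at 0 in any liver library, and the 6 adipocyte markers summed to 26800 to 34900 CPM in eWAT and to 40.6 to 96.4 CPM in liver. The 5 skeletal muscle markers summed to 459 CPM in liver cort NPD replicate 3, the highest of the liver libraries, and their part in the liver results was not tested. An eWAT library, cort HPD replicate 4, held 8050 CPM of 7 epididymis markers, and another, veh HPD replicate 4, was above all other eWAT libraries for 10 of 33 members. The labels do not say which libraries came from separate mice beyond numbering them, so p-values measure the spread between libraries.

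In mice on vehicle and NPD, the genes that break down tyrosine, tryptophan, histidine, lysine, proline and glycine were largely liver transcripts, and only the branched-chain group had members higher in eWAT. Of the 33 members outside the branched-chain group with enough counts to compare, 28 were higher in all 4 liver libraries than in any of the 4 eWAT libraries and 0 were higher in eWAT. Among all 16482 genes compared, 12.6% were higher in liver in this way and 54% in eWAT. Of the 13 branched-chain genes, 10 were higher in eWAT and 0 in liver with levels scaled within each tissue, and 9 were higher in eWAT with library totals alone. This depended on how the tissues were scaled to each other. With TMM factors set over both tissues, 3 branched-chain genes remained higher in eWAT (Bcat2, Bckdk and Mccc1) and 5 were higher in liver, while all 33 of the other members were higher in liver. With these factors 31.1% of all genes were higher in eWAT and 27.1% in liver.

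**Figure D1:**
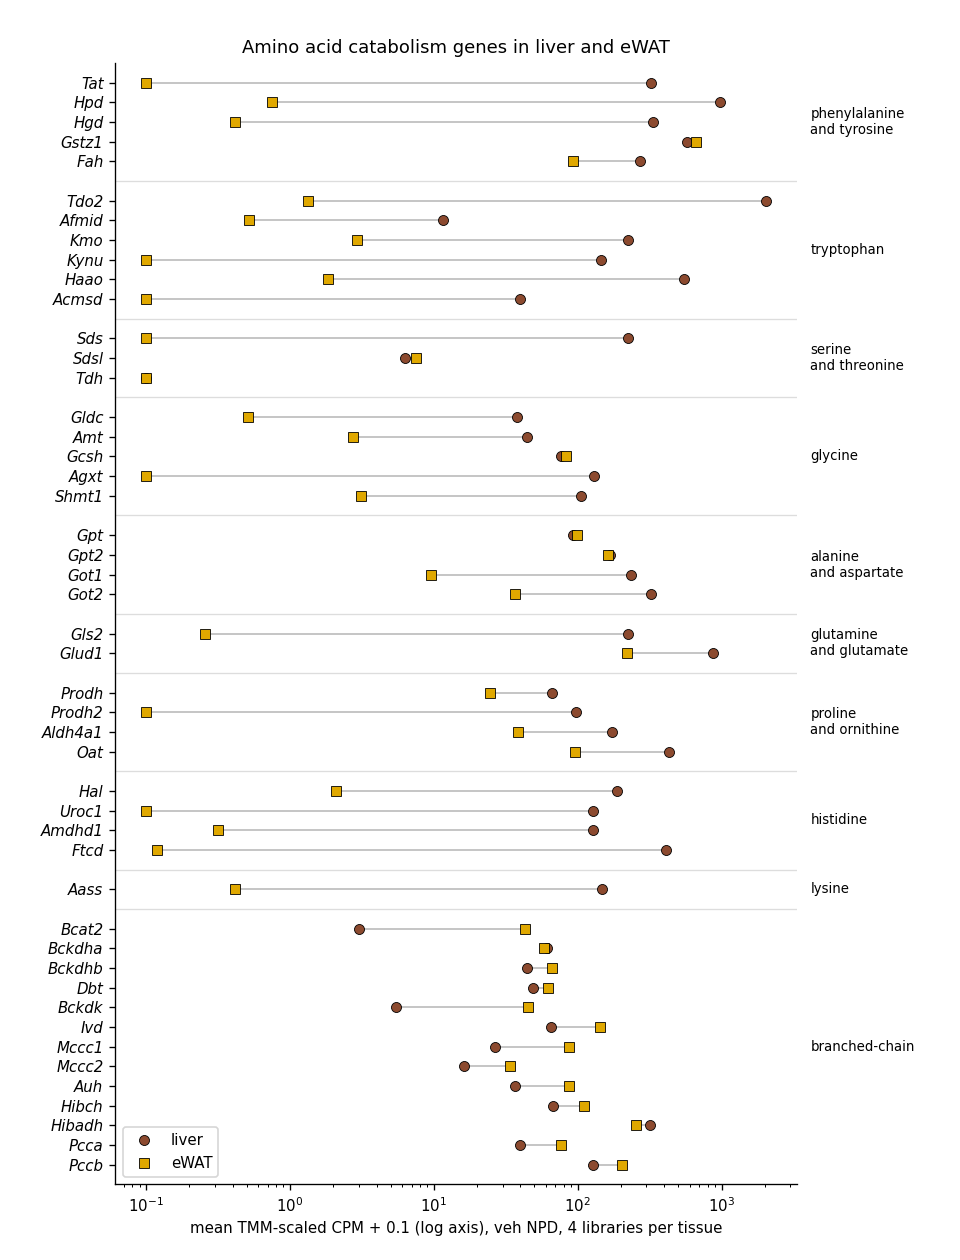
Mean level of each of the 47 genes in veh NPD liver (circles) and eWAT (squares), 4 libraries each, as TMM-scaled CPM plus 0.1 on a log axis, grouped by amino acid. Tissues were scaled separately. Grey lines join the tissues of 1 gene, and for the branched-chain genes at the bottom the eWAT square lies close to the liver circle or to its right.

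Bcat2, the mitochondrial branched-chain aminotransferase, stood at 2.61, 3.93, 2.34 and 2.79 CPM in veh NPD liver and at 49.3, 50.9, 34.3 and 37.3 CPM in veh NPD eWAT. Bckdk, the kinase that inhibits branched-chain ketoacid dehydrogenase, averaged 5.31 CPM in liver and 45.2 CPM in eWAT, whereas Bckdha, a catalytic subunit of that complex, overlapped between tissues at 61 and 58.4 CPM with levels scaled within each tissue and was higher in all liver libraries with factors set over both. The other side of the pattern was set by enzymes that eWAT barely contained. Tat, Kynu, Acmsd, Sds, Agxt, Prodh2 and Uroc1 were at 0 in all 4 veh NPD eWAT libraries. Over all 16 eWAT libraries, 14 members were too low to test, with no level above 1.61 CPM, and 2 of them, Agxt and Prodh2, were at 0 in every library, where a count of 0 allows up to 3 counts per library by counting error alone. Tdh, threonine dehydrogenase, had no count in any liver library and a single count in 1 eWAT library. Gpt and Gpt2, the cytosolic and mitochondrial alanine aminotransferases, had close means with levels scaled within each tissue, with Gpt at 92.2 CPM in liver and 99 CPM in eWAT and Gpt2 at 168 and 163 CPM. With factors set over both tissues, each was higher in every liver library than in any eWAT library.

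In liver, more of these genes were called for cort than for diet, and cort moved them in both directions, while every diet call was an increase. On NPD, 15 of 46 tested members passed an adjusted p under 0.05 (edgeR quasi-likelihood test, Benjamini-Hochberg over all genes), with 5 higher and 10 lower, against 12.6% of all genes called, 6.84% higher and 5.79% lower. On HPD, 9 passed, with 4 higher and 5 lower, against 9.89% of all genes, 4.75% higher and 5.14% lower. With library totals in place of TMM factors that split became 1 higher and 8 lower, with 275 genes higher and 1272 lower among all genes, in place of 589 and 637. HPD raised 1 member in veh mice, against 0.169% of all genes called, and 7 members in cort mice with 0 lower, against 5.88% of all genes, 3.08% higher and 2.8% lower. With library totals 4 were higher and 0 lower in cort mice, with 221 genes higher and 730 lower among all genes, in place of 382 and 347. Cort HPD replicate 1 had the lowest TMM factor of the liver fit, 0.754, and the highest hepatocyte marker sum, 277000 CPM. It was the lowest of its group for 23 of 46 members and the highest for 13. Without it the diet calls in cort mice were 10 in place of 7. Its part in the shifts with library totals was not tested. No member passed the test of the diet by cort interaction, for which 0.113% of genes were called. An unadjusted p under 0.05 was found for 4 of 46 members and for 1496 of 12391 genes. No member passed the interaction test in any of the 7 alternative fits, DESeq2 and limma voom among them. Differences between diets in the cort effect on single genes were therefore not called. The cort effects on NPD and HPD share no library, and 8 members were called in both, 53.3% of the NPD calls and 88.9% of the HPD calls, all 8 in the same direction. The cort effect on NPD and the diet effect in cort mice do share the cort NPD libraries. Agxt, Tat, Oat, Mccc2 and Hibadh were called in both, lower with cort and higher with HPD. For either pair of comparisons, the overlap of calls among all genes was not counted. These overlaps are therefore not read as particular to the members.

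**Figure D2:**
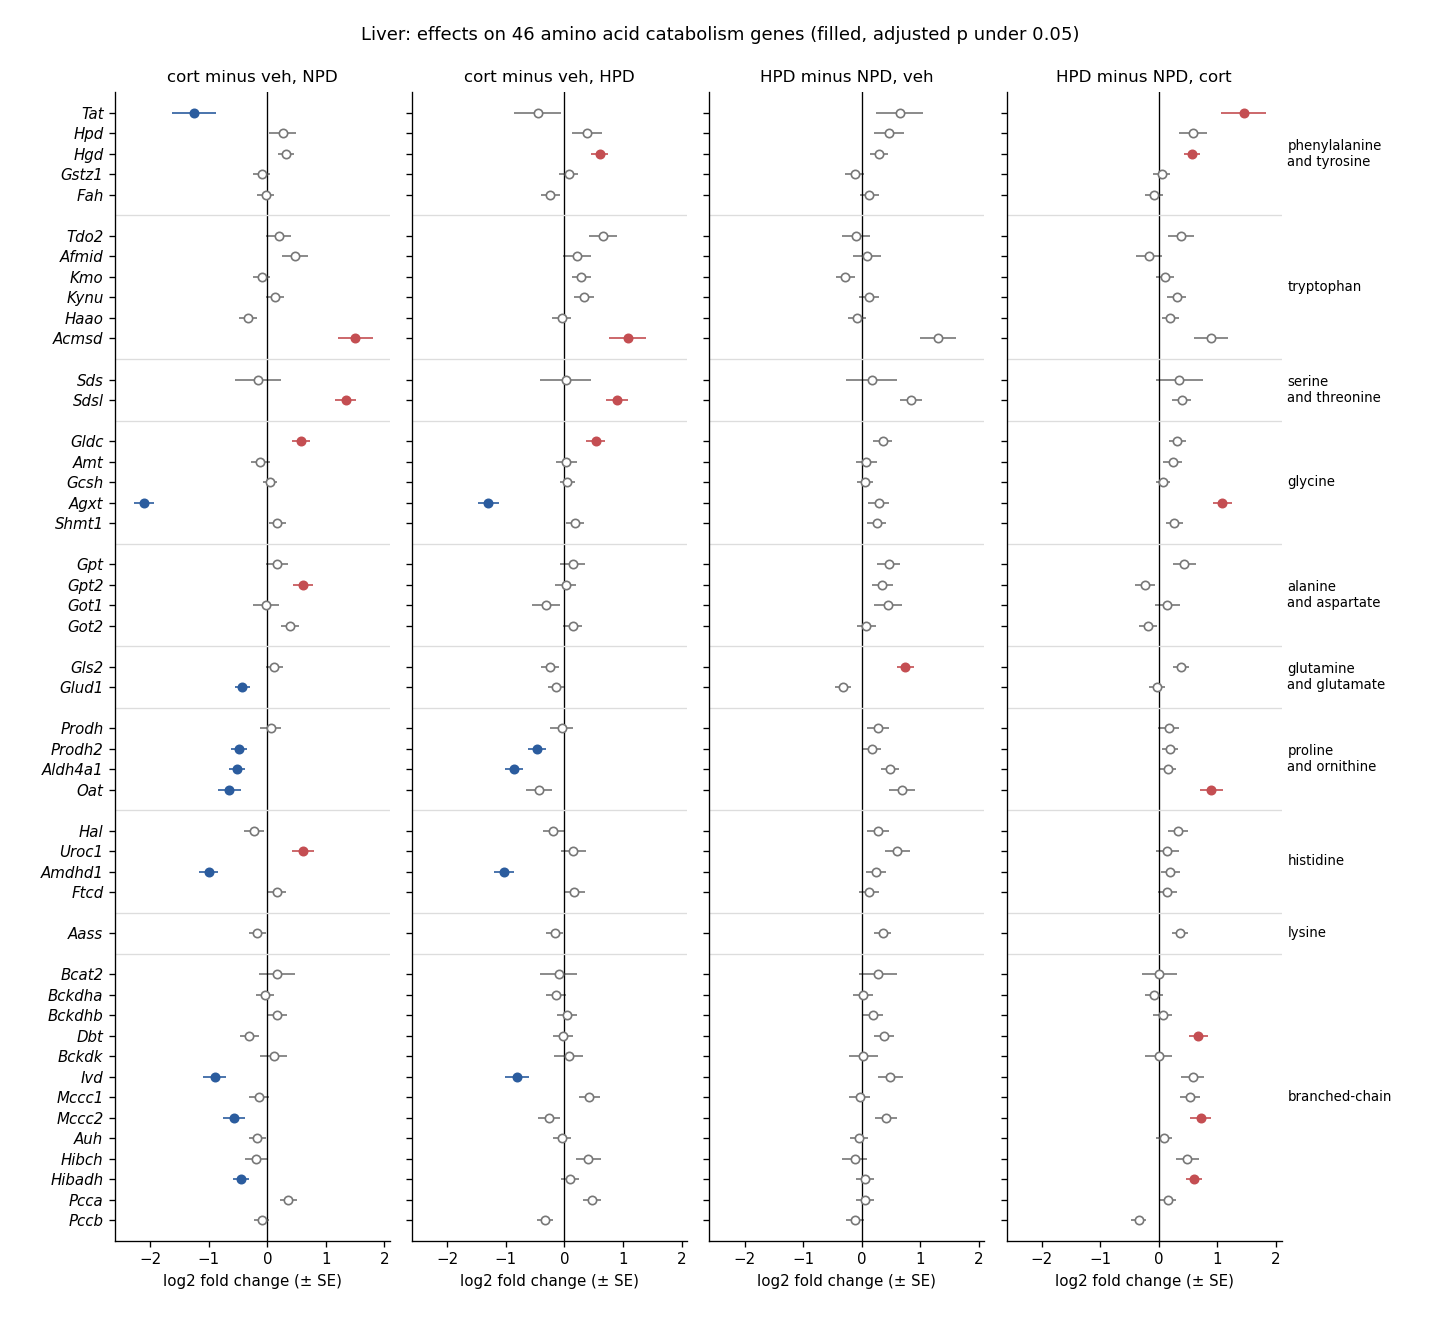
Log2 fold change with SE for the 46 members tested in liver, in 4 comparisons, grouped by amino acid. Filled red and blue points passed an adjusted p under 0.05 as higher and lower, and open points did not. The cort panels hold filled points on both sides of 0, with Agxt farthest to the left, and the diet panels hold filled points to the right only.

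The median log2 difference between diets was 0.22 over the 46 members in veh mice and 0.22 in cort mice, with 37 and 38 members above 0, while the median of all genes was 0 and -0.01 and 50.4% and 49% of genes lay above 0. The 2 diet comparisons use different libraries. The medians of the members depended on processing. With veh HPD replicate 4 included, the median in veh mice was 0.11 with 29 of 46 above 0, against 0.03 for all genes. With library totals in place of TMM factors, the median in cort mice was 0.07 with 30 above 0. All genes moved down as well there, to a median of -0.18. In veh mice library totals gave 0.27 with 39 above 0, against 0.05 for all genes. The cort comparisons showed no such shift, with medians of -0.03 on NPD and 0.03 on HPD. With library totals the HPD cort comparison shifted to a median of -0.24 for all genes and -0.2 for the members. With veh HPD replicate 4 included, the cort calls on NPD fell from 15 to 7 and the diet calls in cort mice from 7 to 2. Those kept for cort on NPD were Amdhd1, Gldc, Agxt, Acmsd, Ivd, Aldh4a1 and Sdsl, and those kept for diet in cort mice were Dbt and Agxt. Cort on HPD then called Amdhd1, Hgd, Agxt, Acmsd, Aldh4a1, Sdsl and Pcca, and no member was called between diets in veh mice.

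Markers of other cells and of liver zones also moved with cort, and some moved with diet. The 6 macrophage markers summed to 196 to 260 CPM in the 7 veh libraries and to 74.9 to 156 CPM in the 8 cort libraries. The hepatocyte list ran from 87800 to 131000 CPM with veh. In cort mice it ran from 123000 to 147000 CPM on NPD and from 168000 to 277000 CPM on HPD, so the diets did not overlap. The 7 pericentral markers ran from 2210 to 2820 CPM with veh, from 1800 to 2360 CPM in cort NPD and from 1270 to 1940 CPM in cort HPD. The 5 periportal markers, which include urea cycle genes, were at 2370 to 2850 CPM in veh NPD and at 3410 to 4870 CPM in the other 3 groups, and red blood cell markers were at 5270 to 7620 CPM in cort HPD and at 1360 to 3540 CPM in the other groups. Their part in the results on the members was not tested. In whole tissue, fewer cells of a type and less RNA per cell cannot be told apart.

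The glycine group held the change with the smallest p. Agxt, the alanine-glyoxylate aminotransferase that detoxifies glyoxylate (chr1:93135240-93145421, plus strand, GRCm38), stood at 127, 145, 126 and 119 CPM in veh NPD liver and at 147, 153 and 173 CPM in veh HPD. It stood at 40.5, 31, 25.5 and 22.9 CPM in cort NPD and at 56.2, 55.2, 80 and 64.2 CPM in cort HPD. None of the 4 groups overlapped another, and every cort library was below every veh library. Agxt fell with cort, with a log2 fold change of -2.11 ± 0.17 (SE) on NPD with adjusted p = 2.5e-08, and of -1.3 ± 0.18 on HPD with adjusted p = 5.7e-05. HPD raised it by 1.09 ± 0.17 in cort mice with adjusted p = 0.00051, and in veh mice the difference was 0.29 ± 0.18 with adjusted p = 0.65. All 3 calls were kept in every alternative fit and with each library left out.

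Gldc, the glycine-decarboxylating protein of the glycine cleavage system, moved the other way. Its levels were 35.6, 36.1, 44.6 and 33.9 CPM in veh NPD, 54.1, 44.8 and 45.6 CPM in veh HPD, 57.6, 57.6, 61.2 and 45.9 CPM in cort NPD, and 55.1, 80.2, 75.4 and 67.1 CPM in cort HPD. All 4 cort NPD libraries were above all 4 veh NPD libraries. Cort raised Gldc by 0.57 ± 0.15 on NPD (adjusted p = 0.014) and by 0.53 ± 0.16 on HPD (adjusted p = 0.04), and with library totals both calls were lost, as was the HPD call in 7 of 15 fits that left out 1 library. The other members of the cleavage system, Amt and Gcsh, had log2 cort effects between -0.12 and 0.05 and were not called, and neither was Shmt1, cytosolic serine hydroxymethyltransferase, at 0.17 and 0.18.

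Sdsl and Sds, related enzymes that deaminate serine and threonine, differed. Sdsl was a low transcript at 7.27, 6.8, 5.37 and 5.5 CPM in veh NPD, 13.1, 10.3 and 9.93 CPM in veh HPD, 16.6, 17.7, 16.8 and 12.3 CPM in cort NPD, and 16.6, 21, 24.9 and 20.5 CPM in cort HPD. Veh NPD was below all other groups, and the cort HPD libraries were above all veh libraries. Cort raised Sdsl by 1.34 ± 0.18 on NPD (adjusted p = 2.6e-05) and by 0.9 ± 0.19 on HPD (adjusted p = 0.0039). The diet difference in veh mice, 0.84 ± 0.19, had adjusted p = 0.092 and passed with DESeq2 and without the filter on low counts. Sds, serine dehydratase, varied within groups instead, at 144, 235, 116 and 404 CPM in veh NPD, 161, 308 and 290 CPM in veh HPD, 292, 266, 121 and 128 CPM in cort NPD, and 282, 265, 210 and 270 CPM in cort HPD. All groups overlapped, and its 4 log2 differences ran from -0.16 to 0.35 with SE of 0.4 to 0.43. Exons of Sds overlap exons of Plbd2 on the opposite strand, and whether counting used strand is not given in the sources used here.

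Among the 5 tyrosine genes, Tat at the head of the pathway and Hgd in its middle were called, and Hpd, Gstz1 and Fah were not. Tat, tyrosine aminotransferase (chr8:109990437-109999803, plus strand), stood at 210, 446, 151 and 481 CPM in veh NPD, 410, 830 and 280 CPM in veh HPD, 167, 147, 123 and 103 CPM in cort NPD, and 437, 334, 332 and 369 CPM in cort HPD. The 4 cort NPD libraries were close together and below every other liver library but the veh NPD library at 151 CPM, and veh libraries spread widely. Tat fell with cort on NPD, with a log2 fold change of -1.25 ± 0.38 (adjusted p = 0.046), and was higher on HPD than on NPD in cort mice by 1.45 ± 0.38 (adjusted p = 0.042). Both calls were close to the threshold. The cort call was lost in 11 of 15 fits that left out 1 library and the diet call in 9 of 15, with adjusted p up to 0.12 and 0.11 and no change of sign.

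On HPD the cort difference in Tat was -0.46 ± 0.4 (adjusted p = 0.53). Hgd, homogentisate dioxygenase, was at 311, 291, 316 and 408 CPM in veh NPD, 427, 356 and 439 CPM in veh HPD, 400, 444, 395 and 423 CPM in cort NPD, and 656, 607, 601 and 602 CPM in cort HPD. Every cort HPD library was above every library of the other 3 groups. Cort raised Hgd by 0.6 ± 0.15 on HPD (adjusted p = 0.014), and HPD raised it by 0.57 ± 0.14 in cort mice (adjusted p = 0.018). Both calls were lost with library totals. The gene Hpd, which encodes the dioxygenase between Tat and Hgd and shares only its letters with the diet, had log2 differences of 0.26 to 0.59 in the 4 comparisons, none called. Fah and Gstz1, which complete the pathway, had differences between -0.24 and 0.13.

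The promoters of Agxt, Tat and Oat are shown because these genes, 3 of the 5 called in both comparisons that use the cort NPD libraries, had the largest called changes there. Promoter sequences were found in RefSeq (GRCm38.p6) for 40 of the 47 members, and Gpt, Sdsl, Sds, Dbt, Kynu, Gls2 and Tdh had none. The 250 bases before each start are printed on the gene's strand, with matches on either strand to TGTTCT, the core of a glucocorticoid response element, and to CCAAT in capitals.
Agxt, chr1:93134990-93135239, plus strand: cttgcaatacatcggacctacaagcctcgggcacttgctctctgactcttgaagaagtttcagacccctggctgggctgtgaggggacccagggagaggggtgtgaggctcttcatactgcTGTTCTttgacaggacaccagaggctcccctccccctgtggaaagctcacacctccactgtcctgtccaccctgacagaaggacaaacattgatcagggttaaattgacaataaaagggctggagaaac
Tat, chr8:109990186-109990435, plus strand: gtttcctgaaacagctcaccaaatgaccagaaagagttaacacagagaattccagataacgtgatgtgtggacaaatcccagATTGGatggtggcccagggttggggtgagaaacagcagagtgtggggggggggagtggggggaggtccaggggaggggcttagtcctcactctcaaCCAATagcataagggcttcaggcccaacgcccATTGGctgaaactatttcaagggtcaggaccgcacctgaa
Oat, chr7:132576399-132576648, minus strand: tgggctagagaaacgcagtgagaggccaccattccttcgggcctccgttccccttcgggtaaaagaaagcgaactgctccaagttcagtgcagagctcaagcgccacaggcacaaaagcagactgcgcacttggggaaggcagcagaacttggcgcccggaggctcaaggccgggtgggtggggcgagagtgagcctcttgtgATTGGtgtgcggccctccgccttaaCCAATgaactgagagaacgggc

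The Agxt window held 1 match to TGTTCT, which began 129 bases before the start, and no match to CCAAT, whereas the Tat window held 3 matches to CCAAT and the Oat window 2, and neither held TGTTCT. Windows of this length with TGTTCT made up 16.1% of the 32851 promoters in the table and 5 of the 44 promoters listed for members, and windows with CCAAT made up 33.8% and 24 of 44. The full palindrome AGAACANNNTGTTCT was in 3 promoters of the table and in no member's. A cAMP response element, TGACGTCA, was in 1.55% of all promoters and in no member's window, and TATAAA was in 12.4% and in 6 of 44. These matches describe the letters of the windows only.

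Of the 6 tryptophan genes, Acmsd was called and the others were not. Acmsd encodes the decarboxylase that diverts the kynurenine pathway away from NAD synthesis. Its levels were 44.2, 35.7, 29.5 and 50.1 CPM in veh NPD, 148, 76.7 and 71.8 CPM in veh HPD, 125, 86, 169 and 70.2 CPM in cort NPD, and 149, 243, 186 and 258 CPM in cort HPD. Veh NPD was below every other group, and cort HPD overlapped cort NPD through 1 library of the latter. Cort raised Acmsd by 1.5 ± 0.3 on NPD (adjusted p = 0.0037), a call kept in every fit, and by 1.08 ± 0.32 on HPD (adjusted p = 0.045), which was lost in 9 of 15 fits that left out 1 library.

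HPD differed from NPD in Acmsd by 1.31 ± 0.31 in veh mice (adjusted p = 0.13) and by 0.89 ± 0.29 in cort mice (adjusted p = 0.085), and both passed with DESeq2. Tdo2, tryptophan dioxygenase at the head of the pathway and another classic glucocorticoid-responsive enzyme, stood at 1990, 2320, 1450 and 2370 CPM in veh NPD, 1340, 2510 and 1880 CPM in veh HPD, 2730, 2310, 2520 and 1700 CPM in cort NPD, and 4350, 2600, 2750 and 2320 CPM in cort HPD. All groups overlapped, and on HPD 3 of 4 cort libraries were above all 3 veh libraries. Its cort effects were 0.19 ± 0.22 on NPD and 0.66 ± 0.24 on HPD, with adjusted p = 0.65 and 0.095. Kmo, Kynu and Haao, which follow in the pathway, had log2 differences between -0.33 and 0.33 in the 4 comparisons.

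In the proline and ornithine group, 3 of 4 members were called as lower with cort on NPD and 2 on HPD. Among all genes, 5.79% and 5.14% were called lower. Oat, ornithine aminotransferase (chr7:132557478-132576398, minus strand), stood at 400, 430, 403 and 505 CPM in veh NPD, 673, 667 and 761 CPM in veh HPD, 179, 394, 192 and 344 CPM in cort NPD, and 588, 490, 449 and 543 CPM in cort HPD. Cort NPD was the lowest group and veh HPD the highest, and cort HPD overlapped only veh NPD. Oat fell with cort on NPD by -0.65 ± 0.2 (adjusted p = 0.038), lost in 5 of 15 fits that left out 1 library. On HPD its cort libraries, at 449 to 588 CPM, were below the fitted veh libraries, at 667 to 761 CPM. The left-out veh HPD replicate 4 was at 351 CPM. This HPD difference was not called with TMM factors, and library totals called it as lower. HPD raised it by 0.9 ± 0.2 in cort mice (adjusted p = 0.01), lost when veh HPD replicate 4 was included, and the difference in veh mice was 0.69 ± 0.22 (adjusted p = 0.25).

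Aldh4a1, the dehydrogenase that takes proline and hydroxyproline carbon to glutamate and its analogue, was at 178, 161, 176 and 180 CPM in veh NPD, 266, 220 and 248 CPM in veh HPD, 124, 121, 114 and 123 CPM in cort NPD, and 104, 132, 149 and 152 CPM in cort HPD. All 8 cort libraries were below all 7 veh libraries. It fell with cort by -0.52 ± 0.14 on NPD (adjusted p = 0.014) and by -0.86 ± 0.15 on HPD (adjusted p = 0.00055), in every fit tried. Prodh2, hydroxyproline dehydrogenase, fell by -0.48 ± 0.14 and -0.47 ± 0.15 (adjusted p = 0.022 and 0.042), and these calls were lost in 4 and 6 of 15 fits with 1 library left out. Prodh, proline dehydrogenase, stood at 54.2, 56.3, 63.2 and 91.3 CPM in veh NPD, 68.7, 72.7 and 99.7 CPM in veh HPD, 88.5, 64.5, 64.2 and 60 CPM in cort NPD, and 87.1, 66.4, 77.7 and 80.2 CPM in cort HPD. All 4 groups overlapped, and its cort effects in liver were 0.06 ± 0.18 and -0.05 ± 0.19.

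In histidine breakdown, Amdhd1 was called as lower with cort on both diets, and a less stable call on NPD went the other way. Amdhd1, which opens the imidazolone ring, stood at 126, 116, 141 and 129 CPM in veh NPD, 148, 143 and 162 CPM in veh HPD, 78.6, 73.7, 49 and 54.6 CPM in cort NPD, and 58.2, 69.3, 85.6 and 80.4 CPM in cort HPD. All cort libraries were below all veh libraries. It fell by -1 ± 0.16 on NPD (adjusted p = 0.00019) and by -1.04 ± 0.17 on HPD (adjusted p = 0.00038), in every fit tried. Uroc1, urocanate hydratase, which acts just before it, was higher with cort on NPD by 0.61 ± 0.19 (adjusted p = 0.039). This call was lost in 7 of 15 fits with 1 library left out and in 4 of 8 alternatives. On HPD Uroc1 differed by 0.15 ± 0.21 and was not called.

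Hal, histidine ammonia-lyase at the head of the pathway, was at 205, 170, 167 and 200 CPM in veh NPD, 236, 217 and 223 CPM in veh HPD, 182, 171, 133 and 145 CPM in cort NPD, and 128, 202, 229 and 234 CPM in cort HPD. The veh HPD libraries were above the veh NPD ones, cort HPD spread over both, and none of its differences was called, with values from -0.23 to 0.33. Ftcd, at the end of the pathway, differed by 0.13 to 0.17. Aass, which starts the breakdown of lysine, was at 143, 153, 132 and 162 CPM in veh NPD, 174, 201 and 195 CPM in veh HPD, 129, 123, 136 and 136 CPM in cort NPD, and 137, 177, 155 and 204 CPM in cort HPD. The HPD libraries were above the NPD libraries of the same treatment, and the diet difference was 0.36 ± 0.15 in veh and 0.36 ± 0.14 in cort mice, with adjusted p = 0.43 and 0.13.

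Among the transaminases of alanine and aspartate and the enzymes of glutamine and glutamate, edgeR with TMM factors called Gpt2, Glud1 and Gls2 in liver. Gls2, the liver-type glutaminase, was the only member called between diets in veh mice. It stood at 226, 187, 226 and 255 CPM in veh NPD, 382, 349 and 399 CPM in veh HPD, 271, 247, 245 and 210 CPM in cort NPD, and 292, 329, 319 and 323 CPM in cort HPD. Every HPD library was above every NPD library, and the left-out veh HPD replicate 4, at 377 CPM, lay within the veh HPD range. HPD raised Gls2 by 0.75 ± 0.15 in veh mice (adjusted p = 0.047), which was lost in 13 of 15 fits with 1 library left out, at adjusted p up to 0.15. The call was also lost with veh HPD replicate 4 included, with the replicate number as a block and with only the groups compared. The difference in cort mice was 0.38 ± 0.14 (adjusted p = 0.1), and DESeq2 called it. Gls2 was not called for cort by edgeR with TMM factors. Library totals called it as lower with cort on HPD, where the cort and veh levels above did not overlap. Exons of Gls2 overlap those of Spryd4 on the opposite strand.

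Gpt2 was higher with cort on NPD by 0.61 ± 0.17 (adjusted p = 0.021), at 134, 175, 151 and 212 CPM in veh NPD and 246, 308, 256 and 214 CPM in cort NPD, and 4 of 15 fits with 1 library left out lost the call. In the HPD groups it was at 163, 262 and 219 CPM with veh and 205, 221, 199 and 245 CPM with cort, a difference of 0.02 ± 0.18. Gpt was at 84, 91, 81.8 and 112 CPM in veh NPD, 114, 134 and 133 CPM in veh HPD, 109, 125, 92.9 and 84.2 CPM in cort NPD, and 80.5, 169, 144 and 165 CPM in cort HPD. HPD and NPD libraries were apart in veh mice but overlapped in cort mice, and the diet differences of 0.46 ± 0.2 and 0.44 ± 0.19 had adjusted p = 0.48 and 0.18. Got1 and Got2, the aspartate aminotransferases, were not called by edgeR with TMM factors in any comparison, while DESeq2 called Got2 for cort on NPD in liver.

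Glud1, glutamate dehydrogenase, which releases ammonia from glutamate in mitochondria, was at 866, 890, 802 and 950 CPM in veh NPD, 698, 746 and 668 CPM in veh HPD, 612, 668, 647 and 675 CPM in cort NPD, and 707, 608, 553 and 682 CPM in cort HPD. Veh NPD was above all the other liver libraries. Glud1 fell with cort on NPD by -0.43 ± 0.13 (adjusted p = 0.036), lost in 7 of 15 fits with 1 library left out, and differed by -0.14 ± 0.14 on HPD and by -0.32 ± 0.14 between diets in veh mice, neither called.

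In the branched-chain group the calls fell on enzymes after the shared dehydrogenase, and on 1 subunit of the dehydrogenase itself. Ivd, isovaleryl-CoA dehydrogenase of leucine breakdown, was at 63.1, 60.3, 68.7 and 67.7 CPM in veh NPD, 87.1, 84.3 and 103 CPM in veh HPD, 48.4, 39, 24.8 and 26.7 CPM in cort NPD, and 32.8, 52.1, 64.8 and 58.4 CPM in cort HPD. Cort libraries were below veh libraries on the same diet, with veh HPD highest. Ivd fell with cort by -0.9 ± 0.2 on NPD (adjusted p = 0.0047), in every fit tried, and by -0.81 ± 0.21 on HPD (adjusted p = 0.018), lost in 1 of 15 fits with 1 library left out and with veh HPD replicate 4 included. Mccc2, the subunit of the carboxylase that follows Ivd, fell by -0.57 ± 0.18 on NPD (adjusted p = 0.045), lost in 8 of 15 fits with 1 library left out. HPD raised it by 0.72 ± 0.18 in cort mice (adjusted p = 0.023), lost in 3 of 15 fits.

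Hibadh, of valine breakdown, was at 288, 314, 290 and 374 CPM in veh NPD, 345, 342 and 304 CPM in veh HPD, 241, 247, 223 and 214 CPM in cort NPD, and 427, 325, 316 and 336 CPM in cort HPD. Cort NPD was below the other 3 groups. Hibadh fell with cort on NPD by -0.45 ± 0.14 (adjusted p = 0.037), lost in 6 of 15 fits with 1 library left out, and HPD raised it by 0.6 ± 0.14 in cort mice (adjusted p = 0.014). Dbt, the E2 core of the dehydrogenase, was at 60.9, 41.9, 40.3 and 51.2 CPM in veh NPD, 73.1, 67.5 and 50 CPM in veh HPD, 33.5, 37.9, 42.6 and 42.5 CPM in cort NPD, and 66.4, 56.2, 60.9 and 67.4 CPM in cort HPD. The 4 cort HPD libraries were above the 4 cort NPD libraries, and HPD raised Dbt by 0.68 ± 0.16 in cort mice (adjusted p = 0.013), lost with library totals.

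Other subunits and the start of the pathway were not called in liver by edgeR with TMM factors. Bckdha was at 47.7, 62.9, 66.4 and 67 CPM in veh NPD, 55.1, 64.6 and 65.7 CPM in veh HPD, 69.6, 58.8, 59.7 and 49.4 CPM in cort NPD, and 43.7, 53.2, 69.1 and 59 CPM in cort HPD, with all groups overlapping and differences between -0.14 and 0.02. Bcat2 was at 3.24, 3.02 and 4.32 CPM in veh HPD, 5.46, 3.45, 2.04 and 2.13 CPM in cort NPD, and 2.54, 3.49, 3.83 and 3.27 CPM in cort HPD, which overlapped the veh NPD values given above. Its SE of 0.3 to 0.33 leaves room for sizeable differences at these low counts. Bckdhb, Bckdk, Mccc1, Auh, Hibch, Pcca and Pccb were also not called in this fit, with Hibch at 136 CPM in 1 cort HPD library and 58.8 to 70.1 CPM in the other 3. In other fits, Pcca was called for cort on HPD by DESeq2 and with all 16 liver libraries, Pccb for cort on HPD with library totals, and Mccc1 for diet in cort mice by DESeq2.

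**Figure D3:**
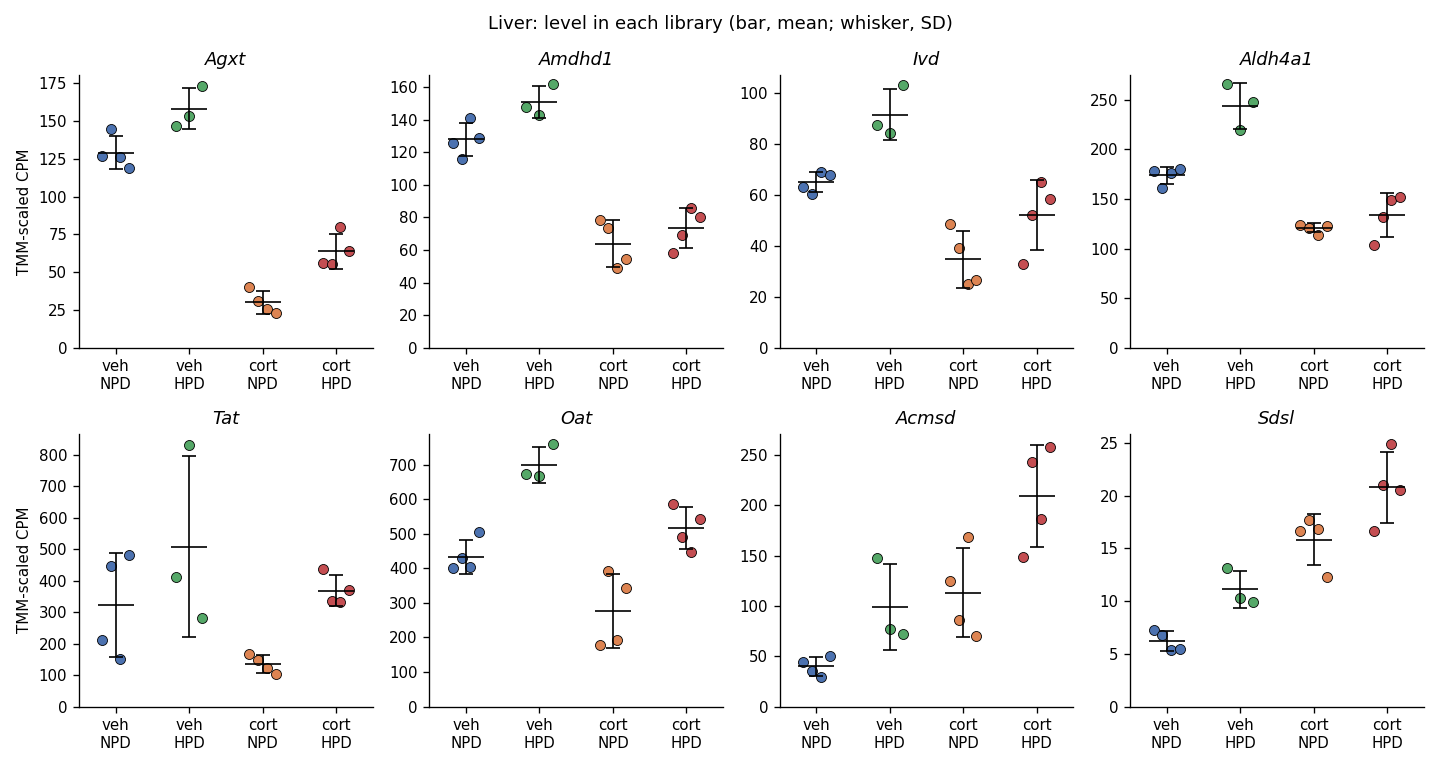
TMM-scaled CPM of 8 members in each liver library (points), with group mean (bar) and SD (whisker), in the 4 groups named on the axis, with 3 libraries in veh HPD and 4 in the other groups. Agxt, Amdhd1 and Aldh4a1 have all cort points below all veh points, Tat and Oat have their lowest points in cort NPD, and Acmsd and Sdsl have their lowest in veh NPD.

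In eWAT all calls on these genes by edgeR with TMM factors were increases with cort, and diet gave none. On NPD, 6 of 33 tested members were higher and 0 lower, against 7.98% of all genes called and 4.05% called higher. On HPD 3 were higher and 0 lower, against 6.09% and 3.46%. With library totals 5 were higher and 0 lower on NPD, with 435 genes higher and 769 lower among all genes in place of 615 and 597, and on HPD Gpt2 was called as lower beside the 3 higher. All 3 of the HPD calls, Glud1, Fah and Pcca, were among the NPD calls, and the NPD and HPD comparisons share no library. The matching overlap among all genes was not counted. The diet comparisons called 0 members in veh mice, against 0.0593% of all genes, and 0 in cort mice, against 0.487%. An unadjusted p under 0.05 was found for 6 and 3 of 33 members, and for 1219 and 1490 of 15187 genes. DESeq2 called 1 member, Prodh, between diets in veh mice and none in cort mice. The interaction called 0 members, against 0.0132% of all genes, and none by DESeq2. Its unadjusted p was under 0.05 for 2 of 33 members and for 784 of 15187 genes. The median log2 cort effect of the members was 0.19 on NPD with 25 of 33 above 0, and 0.1 on HPD with 21 above 0, with medians of -0.02 and 0 for all genes. Of the 33, 23 had a mean of at least 10 CPM in eWAT, and lower members count equally in these figures. Hal, with no library above 3.16 CPM, differed by -1.01 on NPD and by 1.1 on HPD. Without veh HPD replicate 4 the HPD median was 0.28, with 27 of 34 tested members above 0.

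Prodh, the mitochondrial enzyme that oxidizes proline (chr16:18060357-18090203, minus strand), changed most among the called genes of eWAT. It was at 22.5, 23.3, 19.1 and 33 CPM in veh NPD, 31.7, 42.4, 36.4 and 75.4 CPM in veh HPD, 70.6, 71, 75.3 and 62.4 CPM in cort NPD, and 64.1, 74.9, 75.2 and 78.3 CPM in cort HPD. All cort libraries were above all veh libraries except veh HPD replicate 4, which lay within the cort range. Cort raised Prodh by 1.51 ± 0.21 on NPD (adjusted p = 5.2e-05), in every fit tried. On HPD the difference was 0.65 ± 0.2 (adjusted p = 0.06), and it was called without veh HPD replicate 4. The interaction for Prodh was -0.86 ± 0.29 (adjusted p = 0.86).

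Glud1 (chr14:34310727-34345265, plus strand), which took the opposite direction from its liver call, was at 206, 257, 212 and 204 CPM in veh NPD, 237, 239, 233 and 325 CPM in veh HPD, 381, 365, 446 and 320 CPM in cort NPD, and 430, 466, 446 and 474 CPM in cort HPD. Cort and veh libraries were apart on NPD and on HPD. Glud1 rose by 0.78 ± 0.13 on NPD (adjusted p = 0.0002) and by 0.81 ± 0.13 on HPD (adjusted p = 0.00016), in every fit tried. Oat, the partner of Prodh in proline and ornithine metabolism, was at 96.3, 111, 76.9 and 99.6 CPM in veh NPD, 102, 98.4, 109 and 126 CPM in veh HPD, 136, 182, 125 and 114 CPM in cort NPD, and 161, 145, 130 and 144 CPM in cort HPD. Cort libraries were above veh libraries on both diets, and Oat rose by 0.54 ± 0.14 on NPD (adjusted p = 0.015) and differed by 0.41 ± 0.14 on HPD (adjusted p = 0.083). The NPD call was lost in 2 of 16 fits with 1 library left out.

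Fah, which closes tyrosine breakdown, was at 100, 95.9, 80.7 and 92.9 CPM in veh NPD, 98.8, 85.1, 89 and 106 CPM in veh HPD, 151, 146, 173 and 118 CPM in cort NPD, and 151, 131, 136 and 139 CPM in cort HPD. All 8 cort libraries were above all 8 veh libraries. Fah rose by 0.67 ± 0.12 on NPD (adjusted p = 0.00071) and by 0.56 ± 0.12 on HPD (adjusted p = 0.0052), in every fit tried. Gstz1, the enzyme just before Fah, rose by 0.44 ± 0.13 on NPD (adjusted p = 0.042), lost in 11 of 16 fits with 1 library left out. The enzymes that feed them, Tat and Hgd, were at or near 0 in eWAT, with no library above 0.908 and 0.672 CPM.

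Pcca, a subunit of propionyl-CoA carboxylase, which takes up carbon from valine and isoleucine, was at 75.5, 81, 77.4 and 70.3 CPM in veh NPD, 53.8, 63, 63.7 and 100 CPM in veh HPD, 119, 121, 129 and 95.5 CPM in cort NPD, and 104, 109, 101 and 86.8 CPM in cort HPD. The groups were apart on NPD and overlapped on HPD through veh HPD replicate 4. Pcca rose by 0.61 ± 0.15 on NPD (adjusted p = 0.0095) and by 0.51 ± 0.15 on HPD (adjusted p = 0.039), and the HPD call was lost in 7 of 16 fits with 1 library left out. Exons of Pcca overlap those of Ggact on the opposite strand. The other subunit, Pccb, differed by 0.08 ± 0.13 and -0.1 ± 0.13.

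With all 16 libraries, no other branched-chain gene was called in eWAT. Bcat2 was at 57.4, 54.2, 46 and 143 CPM in veh HPD, 50.6, 51.6, 57.6 and 48.2 CPM in cort NPD, and 63.3, 52.2, 62 and 60.8 CPM in cort HPD, beside the veh NPD values given above. The value of 143 CPM came from veh HPD replicate 4. Its cort effects were 0.28 ± 0.28 on NPD and -0.33 ± 0.28 on HPD. Bckdha was at 68.9, 62.8, 52.9 and 49.1 CPM in veh NPD, 64.4, 70.4, 55.9 and 101 CPM in veh HPD, 77, 73.6, 69.3 and 55.7 CPM in cort NPD, and 52.8, 63.5, 69.5 and 71.1 CPM in cort HPD. Its groups overlapped and the same library was again the highest. Dbt was at 67.9, 62.7, 59.4 and 57.7 CPM in veh NPD and 78.7, 86.6, 77.1 and 85.5 CPM in cort NPD, which did not overlap, with a cort effect of 0.4 ± 0.14 (adjusted p = 0.084).

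Veh HPD replicate 4 set several HPD results in eWAT. Without it, cort called 8 members as higher on HPD in place of 3, namely Prodh, Gstz1, Auh, Glud1, Gpt, Fah, Oat and Pcca, and 8 on NPD in place of 6, with Dbt and Gpt added. Its adipocyte markers summed to 34000 CPM, against 27100 to 31000 CPM in the other 3 libraries of its group, and its periportal list to 151 CPM against 17.1 to 32.8. The part of these in its values was not tested. Gpt was at 151 CPM in this library and at 84.5, 69.5 and 65.9 CPM in the rest of its group, with 102, 101, 92.9 and 100 CPM in veh NPD, 150, 135, 115 and 155 CPM in cort NPD, and 100, 125, 102 and 110 CPM in cort HPD. The cort effect on Gpt was 0.48 ± 0.19 on NPD (adjusted p = 0.13) and 0.23 ± 0.19 on HPD (adjusted p = 0.56). Without the library with epididymis transcripts, cort HPD replicate 4, the counts stayed at 6 and 3. Red blood cell markers, at 12700 to 25900 CPM in cort HPD against 3620 to 9270 CPM in the other eWAT groups, moved with that group, and their part was not tested. The 5 skeletal muscle markers summed to 62.3 to 199 CPM in veh NPD eWAT and 10.3 to 23.8 CPM in cort NPD, which did not overlap, and to 19.8 to 89 CPM in veh HPD and 12.1 to 20.2 CPM in cort HPD. They moved with cort, and their part in the cort results was not tested.

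**Figure D4:**
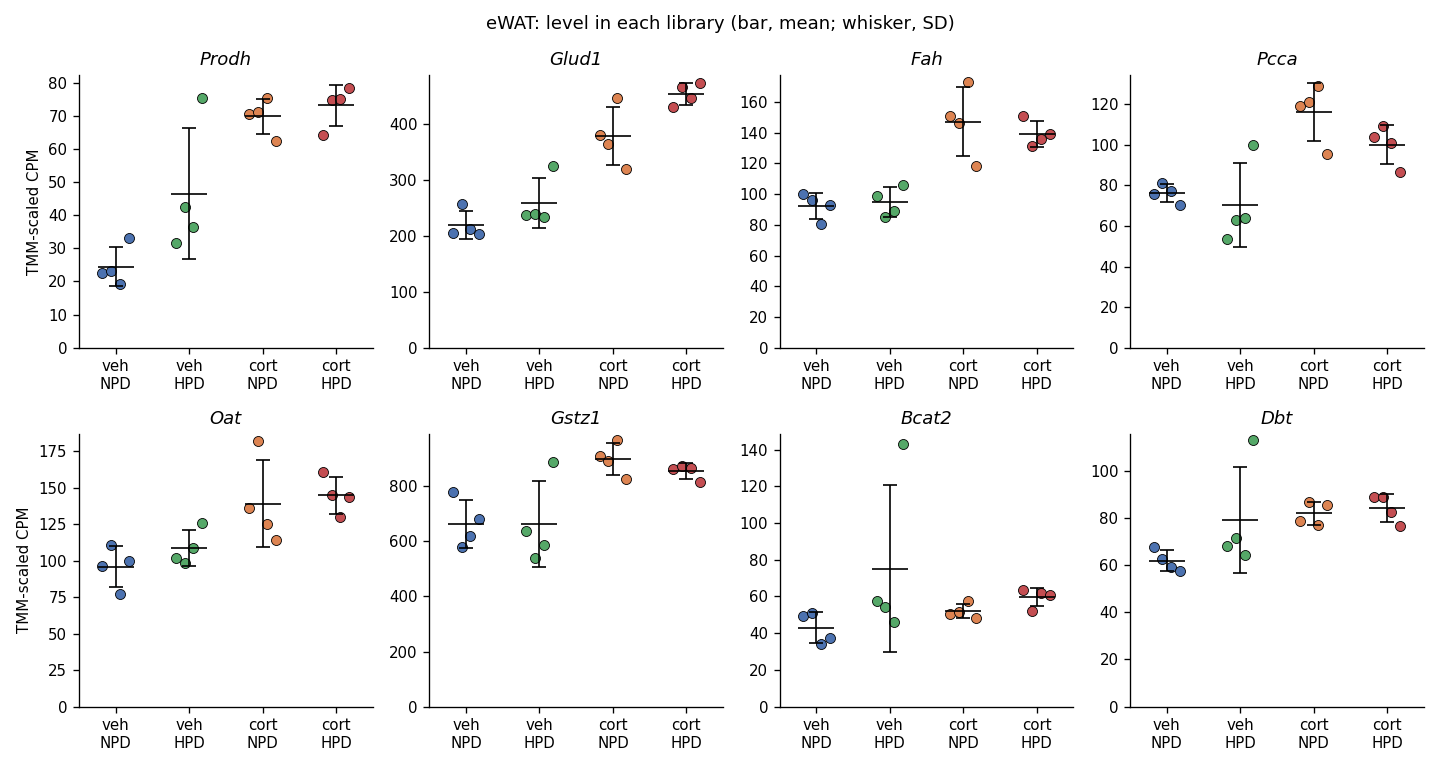
TMM-scaled CPM of 8 members in each eWAT library (points), with group mean (bar) and SD (whisker), 4 libraries in each of the 4 groups. Fah and Glud1 have the cort points above the veh points on each diet, and in Prodh, Bcat2 and Dbt the highest veh HPD point, replicate 4, stands away from the rest of its group.

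Liver and eWAT were then compared directly, as the difference between their cort effects in a single fit of 31 libraries. On NPD 6 of 46 members differed, against 3.85% of all genes, and on HPD 4 differed, against 3.12%. Glud1 differed on both diets, with liver minus eWAT log2 differences of -1.17 ± 0.19 on NPD (adjusted p = 0.00018) and -0.99 ± 0.2 on HPD (adjusted p = 0.0023). Ivd also differed on both, by -1.19 ± 0.25 (adjusted p = 0.0032) and -1.1 ± 0.25 (adjusted p = 0.01). It was at 150, 145, 125 and 146 CPM in veh NPD eWAT and 161, 188, 208 and 155 CPM in cort NPD eWAT, and at 164, 166, 129 and 192 and 195, 213, 178 and 189 CPM in the veh and cort HPD groups. So Ivd fell with cort in liver and was not called in eWAT, where its differences were 0.33 ± 0.13 and 0.25 ± 0.13.

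Prodh and Oat differed between tissues on NPD, by -1.41 ± 0.29 (adjusted p = 0.0031) and -1.14 ± 0.26 (adjusted p = 0.0086). Oat thus fell in liver and rose in eWAT on NPD, and Prodh rose in eWAT while its liver groups overlapped. Fah differed by -0.66 ± 0.19 on NPD (adjusted p = 0.045), lost in 16 of 31 fits with 1 library left out, and by -0.84 ± 0.2 on HPD (adjusted p = 0.013). The HPD call on Fah was lost in 2 of 31 such fits. Both calls were lost with liver veh HPD replicate 4 included, that on HPD at adjusted p = 0.18. Aldh4a1 differed on HPD by -0.96 ± 0.23 (adjusted p = 0.012), lost with liver veh HPD replicate 4 included. In eWAT Aldh4a1 was at 40.4, 31.8, 35.8 and 51.4 CPM in veh HPD and 37.7, 33.4, 47.1 and 47.8 CPM in cort HPD, which overlapped. The call on Hgd, on NPD, rested on 2 veh NPD eWAT libraries at 0.596 and 0.672 CPM with all cort eWAT libraries at 0, so its fitted difference is not interpretable as a size.

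**Figure D5:**
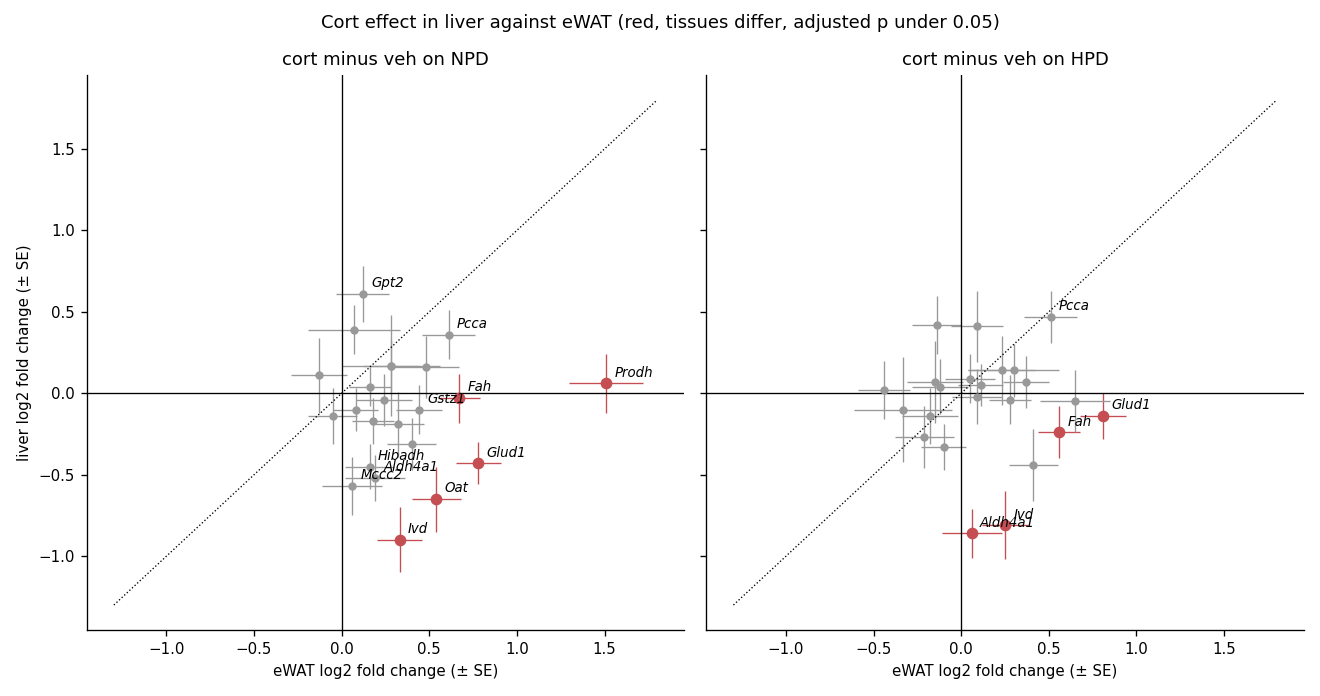
Log2 cort effect in liver (vertical axis) against eWAT (horizontal axis) with SE, on NPD and on HPD, for 23 members tested in both tissues with a mean of at least 10 CPM in eWAT. Red points differed between tissues at an adjusted p under 0.05, and the dotted line marks equal effects. The red points lie below the line, to the right of 0.

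Around these members, 35 further genes of the same pathways were followed, of which 32 were tested in liver and 30 in eWAT. In liver cort raised 2 and lowered 4 on NPD, against 12.6% of all genes called, 6.84% higher and 5.79% lower. On HPD it raised 3 and lowered 2, against 9.89%, 4.75% higher and 5.14% lower. Dmgdh, which demethylates dimethylglycine on the way to glycine, rose by 1.32 ± 0.13 on NPD (adjusted p = 4.6e-07) and 0.77 ± 0.14 on HPD (adjusted p = 0.0013), and was lower on HPD than NPD in cort mice, by -0.77 ± 0.13 (adjusted p = 0.0011). Gcat, of threonine and glycine breakdown, fell with cort on NPD by -0.78 ± 0.16 (adjusted p = 0.0016) and was raised by HPD in cort mice by 0.63 ± 0.15 (adjusted p = 0.02). Aspg, an asparaginase, fell with cort by -0.85 ± 0.13 and -0.65 ± 0.14 (adjusted p = 9.4e-05 and 0.0039). In eWAT 2 of 30 rose with cort on NPD, against 7.98% of all genes called and 4.05% called higher. Kyat3 rose by 0.97 ± 0.2 and Sardh, sarcosine dehydrogenase, by 0.81 ± 0.17 (adjusted p = 0.0023 and 0.0032), and Sardh rose on HPD by 0.78 ± 0.17 (adjusted p = 0.0057). None of these genes was called between diets in eWAT or in veh liver.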

How the data were processed

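Libraries were made by the study with a 3′ mRNA kit (Lexogen QuantSeq forward), which reads near the poly(A) tail, and were sequenced on an Illumina NextSeq2000. The authors deposited 1 table of raw counts per Ensembl gene for 32 libraries, with GRCm38 (mm10) named in the labels. The aligner, the counter and the use of strand are not given in the sources used here. Symbols came from GENCODE M21 (47224 of 47643 IDs), and all 47 members matched. The members, the gene lists and the tests were chosen with earlier results of these data known.

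Counts were filtered with filterByExpr (minimum count 10) and tested with edgeR 4.0.16 in R 4.3.3, by the quasi-likelihood test with TMM factors, robust fitting and Benjamini-Hochberg adjustment over all genes, at an adjusted p under 0.05. Liver (15 libraries, 12391 genes, 46 members) and eWAT (16 libraries, 15187 genes, 33 members) were fitted separately, each over its 4 groups, and 31 libraries together (16482 genes) for differences between tissues. The SE is the log2 fold change divided by the root of the F statistic. Alternatives were DESeq2 1.42.0, limma voom 3.58.1, RLE factors, library totals, no filter, the replicate number as a block, only the groups compared, all liver libraries and each library left out in turn. Values given in every library follow a rule: up to 4 called members per direction and comparison with the smallest p, and 12 enzymes that define a pathway. The scripts were tested on simulated counts. Promoters came from RefSeq (GRCm38.p6). The values of 1 further pathway gene are not reported here.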

Additional observations from a re-analysis of the deposited data

Results flagged for a closer look

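Among 143 groups of 4 libraries examined for the members with values in every library, 9 held a library far from the others of its group, and chance alone is expected to flag about 1 group in 20. In eWAT, veh HPD replicate 4 was high for Glud1 (325 CPM, others 233 to 239), Bcat2 (143 CPM, others 46 to 57.4) and Dbt (113 CPM, others 64.1 to 71.6). Replicate 1 was high for Sdsl in veh NPD eWAT (9.94 CPM, others 6.41 to 6.79) and in cort NPD eWAT (14.3 CPM, others 9.16 to 9.71). Replicate 2 of veh NPD eWAT was high for Glud1 (257 CPM, others 204 to 212) and held the only counts of Aass in its group (1.27 CPM, others at 0). In liver, Hgd was high in cort HPD replicate 1 (656 CPM, others 601 to 607) and Prodh in cort NPD replicate 1 (88.5 CPM, others 60 to 64.5).

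The cort effect differed between liver and eWAT by the joint edgeR test for 6 members on NPD, with log2 liver minus eWAT differences of -1.17 for Glud1, -1.41 for Prodh, -1.19 for Ivd, -1.14 for Oat, -0.66 for Fah and 5.11 for Hgd, the last with almost no counts in eWAT. On HPD it differed for 4 members, by -0.99 for Glud1, -1.1 for Ivd, -0.96 for Aldh4a1 and -0.84 for Fah.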

How the results depend on the processing

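Of 51 called results on single members, 24 stayed called in every alternative, 27 with each library left out in turn and 23 in both, and none changed sign. Counts of called members moved as follows. With all liver libraries, cort on NPD gave 7 in place of 15, diet in cort mice 2 in place of 7, diet in veh mice 0 in place of 1, and the tissue difference on HPD 2 in place of 4. With library totals, diet in cort mice gave 4. Diet in veh liver gave 3 with DESeq2, 2 with no filter and 0 with only the groups compared. With DESeq2, diet in veh eWAT gave 1 in place of 0 and the tissue difference on HPD gave 7. The cause was not tested. With each library left out, cort on NPD in liver gave 6 to 15, diet in veh liver 0 to 2, cort on HPD in eWAT 2 to 8 and diet in veh eWAT 0 to 1. The highest eWAT count came without veh HPD replicate 4 and the lowest liver count without cort NPD replicate 3.

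Replicate numbers were not taken to pair libraries, as the labels do not say that they mark a mouse. Correlations of same-numbered libraries of different groups within a tissue ran from -0.24 to 0.35 in liver (6 of 21 over 0.1) and from -0.13 to 0.25 in eWAT (4 of 24). Between liver and eWAT libraries of the same group and number they ran from -0.04 to 0.22, with 4 of 15 over 0.1 and a median of 0.07. The median for other numbers of the same group was -0.03. Among the eWAT libraries of their group, 8 of 15 liver libraries correlated best with their own number. The labels do not say whether liver and eWAT libraries of the same number came from 1 mouse, and the tissue differences rest on a fit that treats them as unpaired. With the number as a replicate block, diet in veh liver gave 0 called members, and the other counts stayed within 1.5 times. At the low counts of Bcat2 in liver, sizeable differences could be missed. The 14 members too low in eWAT were not tested, so they give no result on differences there.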
